A study of Arabidopsis thaliana with 6 samples.

Results

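In Arabidopsis thaliana flowers, 3 genes for enzymes that cut pectin were followed, namely the polygalacturonase genes AT3G07820 and ADPG1 (AT3G57510) and the pectate lyase gene AT3G01270. Each is read by 1 probe set that lists this gene and no other, so the set covers 3 of the 22810 probe sets of the array. All 3 genes lie on chromosome 3. They were chosen from the same comparison that is described here: AT3G07820 and AT3G01270 for low signals in flowers overexpressing miR159a, and ADPG1 for the opposite difference. Their differences between the groups are therefore given as a description, without a test.

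Pectin is the gel-like polysaccharide of the primary cell wall and of the middle lamella that glues neighbouring plant cells together. Polygalacturonases cut its homogalacturonan backbone by adding water, and pectate lyases cut the same backbone by elimination. Plants use such enzymes where walls must loosen or cells must part, as in growing pollen tubes, in ripening fruit and in the opening of anthers and pods. ADPG1 is known for its part in the opening of pods and, together with related polygalacturonases, of anthers. AT3G07820 is a polygalacturonase of pollen, and AT3G01270 belongs to the pectate lyase family.

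The 6 samples were total RNA from stage 15 flowers, of which 3 came from Columbia wild type and 3 from transgenic plants that overexpress miR159a. This microRNA is known to target transcripts of GAMYB-like MYB transcription factors, which act in anthers. Each was hybridised to a 1-colour array and carries a replicate letter, a, b or c. The sources used here do not give the promoter of the transgene, the number of transgenic lines or the number of plants behind a sample. The p-values therefore cover the spread among these samples, and that spread may be technical. The question is how transcript levels in the flower differ under miR159a overexpression.

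The arrays had median signals between 85.3 and 96.9. Both arrays lettered a stood apart in 2 of 3 control transcripts, with a quotient of 5' over 3' signal for ubiquitin of 0.807 in wild type and 0.886 in the overexpressor, against 0.461 to 0.560 on the other 4. For actin these 2 arrays had quotients of 0.656 and 0.653, against 0.326 to 0.463 elsewhere. For GAPDH their quotients, 0.801 and 0.774, lay within the range of the other 4, from 0.694 to 0.831. Photosynthesis genes and carpel and ovule genes were read on all arrays. The signals of 5 photosynthesis genes summed to between 10699 and 16433 in wild type and between 13599 and 19108 in the overexpressor. Those of 7 carpel and ovule genes summed to between 784.9 and 892.9 in wild type and between 1076 and 1269 in the overexpressor. Much of the carpel and ovule sum came from 1 gene, CES, with a mean of 388.7 in wild type and 680.7 in the overexpressor. Of the 6 tested carpel and ovule genes, 5 did not pass the limma test, so the sums are not read as a shift of the list. The 3 tapetum genes with a probe set were dim, with sums from 25.2 to 39.8 in wild type and from 28.3 to 44.7 in the overexpressor.

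The polygalacturonase gene AT3G07820 had high signals in wild-type flowers and low ones in the overexpressor. Its deposited signal, an intensity on a linear scale, was 3240, 2154 and 1642 in wild-type replicates a, b and c, and 123.6, 377.5 and 28.4 in overexpressor replicates a, b and c. The groups did not overlap: the lowest wild-type signal was 4.35 times the highest overexpressor signal. Over all tested probe sets, the overexpressor arrays all lay below the wild-type arrays in 7.2% and all above them in 7.46%, and nothing is read from this for the members, which were chosen for their difference. The mean was 2345 ± 816 (SD, n = 3) for wild type and 176.5 ± 180 for the overexpressor, so the wild-type mean was 13.3 times the other. On the scale log2(signal + 16), used for every log2 value here, the overexpressor lay at -4.08 (SE 0.69) relative to wild type.

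The spread of AT3G07820 was much wider in the overexpressor than in wild type. The highest of the wild-type arrays was 1.97 times the lowest, and the highest of the overexpressor arrays was 13.3 times the lowest. Relative to the wild-type mean, overexpressor arrays a, b and c kept 5.27%, 16.1% and 1.21% of the signal.

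The pectate lyase gene AT3G01270 showed nearly the same profile. Its signal was 4075, 2859 and 2220 in wild-type replicates a, b and c, and 229.9, 470.7 and 60.2 in overexpressor replicates a, b and c. Again the groups did not overlap, with replicate a the highest in wild type, b the highest and c the lowest in the overexpressor, as for AT3G07820. The means were 3051 ± 943 (SD, n = 3) and 253.6 ± 206, a quotient of 12, and the log2 difference was -3.83 (SE 0.60). Overexpressor arrays a, b and c kept 7.54%, 15.4% and 1.97% of the wild-type mean. Over the 6 arrays the log2 values of AT3G07820 and AT3G01270 had a Pearson r of 0.998, given as a description, since the points share the arrays and the group difference that chose both genes.

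ADPG1 was dim in wild type and brighter in the overexpressor. Its signal was 13.1, 11 and 8.6 in wild-type replicates a, b and c, and 84.9, 49.2 and 66.6 in overexpressor replicates a, b and c. The groups did not overlap. The means were 10.9 ± 2.25 (SD, n = 3) and 66.9 ± 17.9, and the log2 difference was 1.6 (SE 0.19). All wild-type signals lay below the pseudocount of 16 and were not shown to be above background, so no fold is given, and the size of the log2 difference depends on the pseudocount. It was 2.5 with a pseudocount of 1 and 0.80 with 64.

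ADPG1 varied less among the overexpressor arrays than the other members did, with a highest signal 1.73 times the lowest. Overexpressor replicate b, where AT3G07820 and AT3G01270 kept most signal, was the lowest array of the overexpressor for ADPG1. Between arrays of the same letter, the log2 difference of ADPG1 was 1.79 for a, 1.27 for b and 1.75 for c. The log2 difference was -4.54, -2.46 and -5.22 for AT3G07820 in the same order, and -4.06, -2.56 and -4.87 for AT3G01270. In each gene the pair lettered b thus gave the smallest difference. All 3 members passed the filter on dim probe sets, which left out the lowest 25% by mean log2 value. ADPG1 passed through its overexpressor signals, since its wild-type signals all lay below the filter's limit of 18.4.

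**Figure D1:**
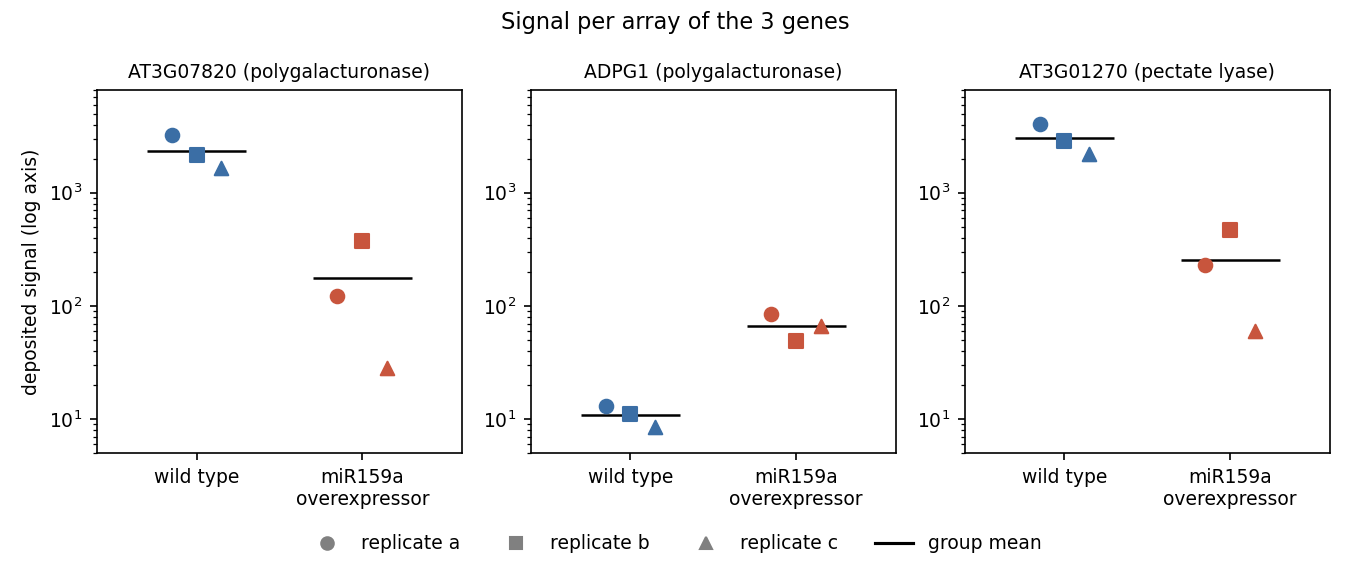
Deposited signal (log axis) of AT3G07820, ADPG1 and AT3G01270 on each array, wild type in blue and miR159a overexpressor in red, with a symbol for each replicate letter and a line at the mean of the 3 arrays of a group. AT3G07820 and AT3G01270 are lower on all 3 overexpressor arrays, with the widest spread there, and ADPG1 is higher, at 49.2 to 84.9 against 8.6 to 13.1.

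The other genes of both enzyme families were read to see how far the members' families share these differences. Of a list of 67 polygalacturonase genes, 43 besides the members had a single-gene probe set and 26 of these were tested. Of a list of 27 pectate lyase genes, 22 besides AT3G01270 had one and 19 were tested. Each gene was tested in a two-sided limma fit over all 17059 tested probe sets, and p-values were adjusted by Benjamini-Hochberg over all of them, with 0.05 as the threshold. Over all tested probe sets 2.17% were lower in the overexpressor and 0.135% higher, and at an unadjusted p under 0.05 the shares were 5.73% and 3.05%.

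Among the other polygalacturonase genes, 2 of 26 fell, 0 rose and 24 did not pass the limma test. At an unadjusted p under 0.05, 3 were lower and 2 higher. With the replicate letter as a block these counts were 4 and 4, against 1358 and 1064 of all 17059 tested probe sets. The median log2 difference of the 26 was 0.05, against 0.04 over all tested probe sets. AT5G48140 had signals of 1576, 1053 and 943.1 in wild-type replicates a, b and c and of 42.1, 193.0 and 22.8 in the overexpressor. It fell by 3.92 on the log2 scale (SE 0.56, limma adjusted p = 0.0134), with no overlap between groups. AT2G23900 had signals of 1001, 390.9 and 323.0 in wild type and of 29.0, 60.7 and 33.0 in the overexpressor, and fell by 3.23 (SE 0.41, limma adjusted p = 0.0107). In wild type, replicate a stood at 175% of the mean for AT2G23900 and at 132% for AT5G48140. The overexpressor arrays of AT2G23900 lay closer together than those of AT5G48140.

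The 24 polygalacturonase genes that did not pass had log2 differences from -0.76 for AT1G70500 to 0.74 for AT1G56710. AT1G56710 had signals of 48.6, 39.0 and 35.2 in wild type and of 88.2, 68.5 and 80.4 in the overexpressor, without overlap (limma adjusted p = 0.0765). With the replicate letter as a block, AT1G56710 passed (limma adjusted p = 0.0319) and was the 1 polygalacturonase gene of the list to rise there. AT1G70500 had signals of 199.0, 98.2 and 136.0 in wild type and of 81.0, 58.4 and 91.1 in the overexpressor (limma adjusted p = 0.350). The genes AT3G15720, AT3G59850, AT2G43870 and AT5G41870 had log2 differences of 0.48, 0.33, -0.53 and 0.32, with limma adjusted p from 0.531 to 0.705. The 17 untested polygalacturonase genes reached a signal of at most 36.0 on any array, with log2 differences from -0.73 to 0.32. The relatives of ADPG1 that also act in cell separation, ADPG2 and QRT2, were not analysed here.

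Among the other pectate lyase genes, 3 of 19 fell, 0 rose and 16 did not pass the limma test. At an unadjusted p under 0.05, 4 were lower and 1 higher, against 5.73% and 3.05% of all tested probe sets. With the letter as a block these counts were 4 and 2, against 1358 and 1064 of all 17059. The median log2 difference of the 19 was 0.24. AT59 (AT1G14420), which resembles the anther-expressed LAT59 gene of tomato, had signals of 988.5, 541.9 and 313.6 in wild-type replicates a, b and c and of 10.3, 56.3 and 13.3 in the overexpressor. AT59 fell by 3.90 (SE 0.48, limma adjusted p = 0.0107), and its mean went from 614.7 ± 343 (SD, n = 3) to 26.6 ± 25.7. AT5G15110, with 884.9, 444.5 and 349.6 in wild type and 32.1, 57 and 4.1 in the overexpressor, fell by 3.69 (SE 0.50, limma adjusted p = 0.0121). AT2G02720, with 582.4, 425.5 and 298.8 against 23.9, 71.0 and 14.2, fell by 3.21 (SE 0.40, limma adjusted p = 0.0107). In these 3 genes, too, wild-type replicate a was the highest array and overexpressor replicate b the highest of its group.

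The 16 pectate lyase genes that did not pass had log2 differences from -0.90 for AT5G09280 to 0.55 for AT3G07010. AT5G09280 was dim, with 35.8, 32.4 and 37.2 in wild type and 15.9, 18.1 and 2.8 in the overexpressor, without overlap (limma adjusted p = 0.151). AT3G07010 had signals of 315.9, 402.2 and 503.8 in wild type and of 558.2, 625.8 and 596.7 in the overexpressor, also without overlap (limma adjusted p = 0.381). The log2 differences of AT3G55140, AT3G53190, AT4G13210 and AT1G04680 were 0.41, 0.33, 0.40 and 0.28, with limma adjusted p from 0.579 to 0.720. Of the 19 genes tested, 15 had a difference above 0. The median over all tested probe sets was itself above 0, at 0.04, and their share above 0 was not counted. In 4 of the 19 the overexpressor arrays all lay above the wild-type arrays, against the 7.46% of all tested probe sets. The 3 untested pectate lyase genes reached a signal of at most 18.2.

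The calls in both families depended on wild-type replicate b. Without it, 0 polygalacturonase and 0 pectate lyase genes were lower by limma, while 4 and 4 were lower at an unadjusted p under 0.05. This was not particular to these families, since 30 of all 17059 tested probe sets were lower by limma there, against 370 with all arrays. At an unadjusted p under 0.05, 821 of all 17059 were lower there, against 978 with all arrays. The log2 differences of the 5 genes that fell stayed about as large there, from -3.99 for AT5G48140 to -3.20 for AT2G02720, with limma adjusted p from 0.0637 to 0.0710. Leaving out any other single array kept 2 polygalacturonase and 3 pectate lyase genes lower. Without both arrays lettered a, a setting chosen after the data were seen, 1 polygalacturonase gene, AT2G23900, and 0 pectate lyase genes were lower, and 4 and 4 at an unadjusted p under 0.05. Of all 17059 tested probe sets, 84 were lower by limma in that setting and 1052 at an unadjusted p under 0.05. The 5 genes that fell kept their direction under all 16 alternatives run for each, and with a pseudocount of 1 AT5G15110 missed the threshold (limma adjusted p = 0.0578).

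**Figure D2:**
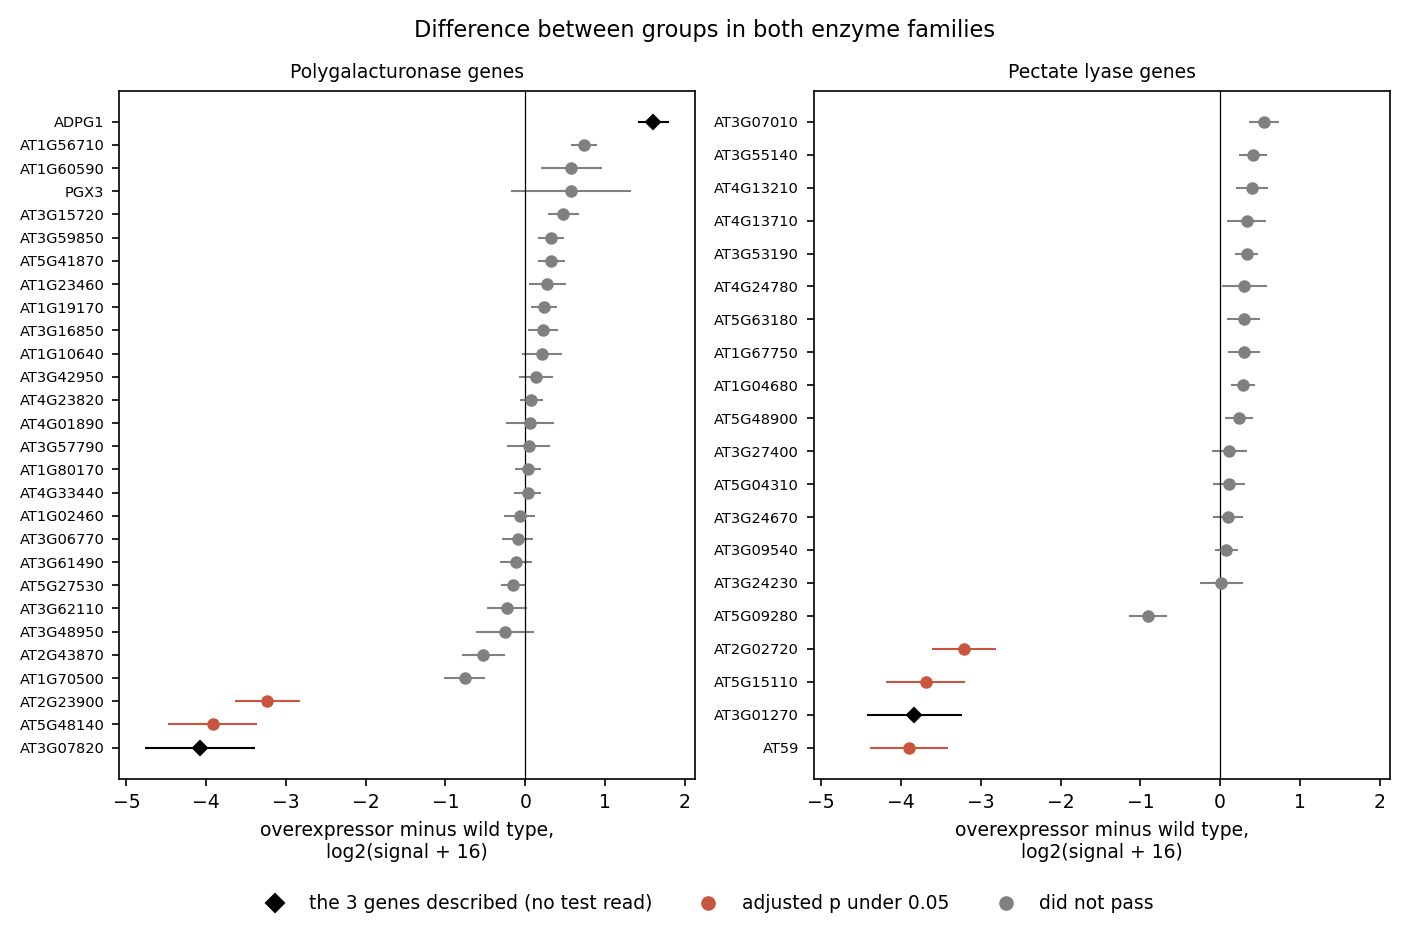
Difference between overexpressor and wild type on the scale log2(signal + 16), with its limma standard error, for every tested polygalacturonase gene (left) and pectate lyase gene (right), 3 arrays a group. Black diamonds are the 3 genes described, red points genes with adjusted p under 0.05 and grey points genes that did not pass, and the red points lie between -3.92 and -3.21, apart from the grey ones, which run from -0.90 to 0.74.

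The signal left in the overexpressor was also small in the 5 enzyme genes that fell. Of their own wild-type means they kept 1.68% to 5.74% on overexpressor array a, 9.16% to 16.3% on b and 0.733% to 5.77% on c. These shares are approximate, since some of the signals behind them, down to 4.1 for AT5G15110, lay under the filter's limit of 18.4 and were not shown to be above background. Replicate b was the highest of the overexpressor arrays and replicate a the highest of the wild-type arrays for 5 of these 5.

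Most of the mature pollen markers that were read moved with these genes. Their list was chosen with earlier results of these data known, so the counts are a description and no independent support. Of 32 marker genes 13 had a single-gene probe set and these 13 were tested, of which 9 fell, 0 rose and 4 did not pass the limma test (11 lower and 0 higher at an unadjusted p under 0.05). Of all tested probe sets 2.17% were lower at the adjusted and 5.73% at the unadjusted threshold. Without wild-type replicate b 0 of 11 tested fell by limma, and without both arrays lettered a 0 of 11. At an unadjusted p under 0.05 these were 10 and 9. Without wild-type replicate a 3 of 11 fell, without overexpressor replicate a 2 of 13 and without overexpressor replicate c 2 of 13 (9, 11 and 11 unadjusted). A pseudocount of 1 left 3 of 12, no filter 4 of 13 and the filter of 50% 4 of 5 (10, 11 and 5 unadjusted). Over all probe sets these settings gave, in order, 30, 84, 232, 196, 166, 209, 291 and 180 lower by limma, against 370. Tested were 17059, but 22746 with no filter and 11373 with the filter of 50%. The summed signal of the 13 was 1594 to 3917 in wild type and 177.6 to 546.1 in the overexpressor, and no marker was listed at 0. ANX2, a receptor-like kinase gene of pollen tubes, had 487.4, 313.3 and 213.5 in wild type and 13.3, 49.9 and 5.3 in the overexpressor. The groups overlapped for AGL65 and AGL30, both of which encode MADS-box factors. AGL65 had 89.2, 58.8 and 56.3 in wild type and 63.6, 61.1 and 55.9 in the overexpressor (log2 difference -0.12, limma adjusted p = 0.966). AGL30 had 71.1, 8.6 and 50.3 against 37.9, 18.4 and 19.2 (log2 difference -0.37, limma adjusted p = 0.941). The 9 markers that fell kept medians of 3.93%, 14.8% and 2.47% of their wild-type means on overexpressor arrays a, b and c. Wild-type replicate a was the highest wild-type array in 9 of 9 and overexpressor replicate b the highest of its group in 8 of 9. The sperm cell gene MGH3, too dim to be tested, had 79.3, 28.6 and 24.7 in wild type and 2.2, 9.3 and 2.7 in the overexpressor. The part of the pollen markers in the low signals of AT3G07820 and AT3G01270 was not tested, and in whole flowers fewer pollen grains and less RNA per grain cannot be told apart.

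**Figure D3:**
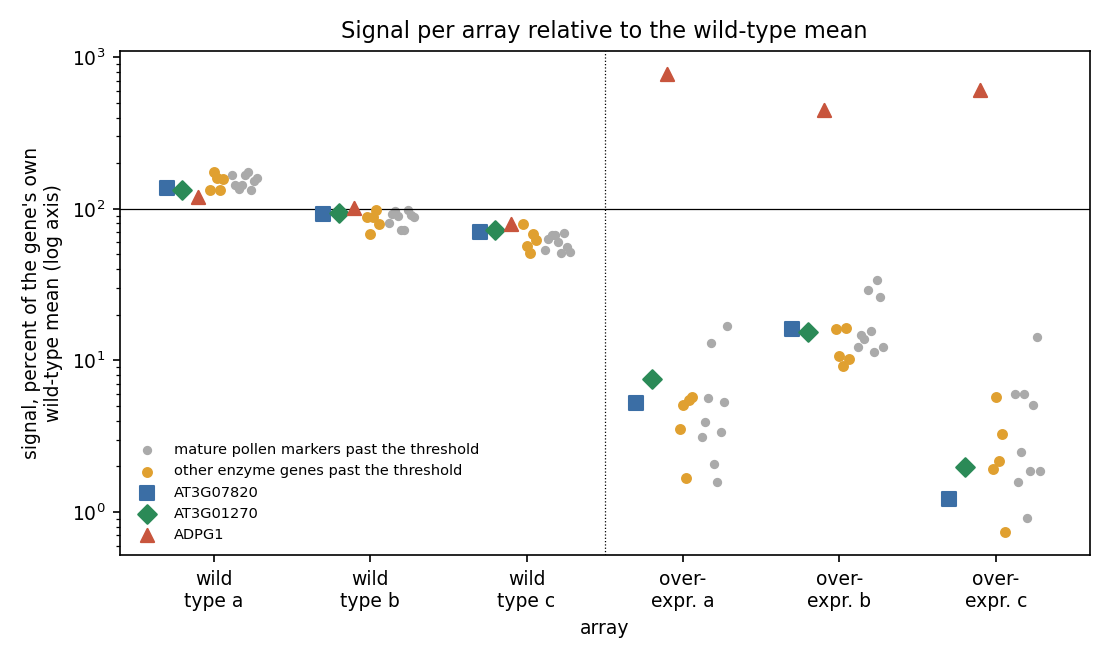
Signal on each array as a percentage of the gene's own wild-type mean (log axis), with a horizontal line at 100%, for AT3G07820, AT3G01270 and ADPG1, for the 5 other enzyme genes past the threshold and for the 9 mature pollen markers past it. AT3G07820 and AT3G01270 lie within the range of the other enzyme genes and pollen markers on every array, with 16.1% and 15.4% left in overexpressor replicate b, while ADPG1 stands above its wild-type mean on all 3 overexpressor arrays. Percentages that rest on signals near the floor, as for ADPG1 and the lowest points, are approximate.

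Other genes of cell separation were compared with ADPG1. The list of dehiscence and secondary wall genes held 23 genes, of which 2 besides ADPG1 were tested, and 0 of these passed the limma test, or an unadjusted p under 0.05. ALC, a bHLH factor gene of the pod's separation layer, had 396.8, 309.0 and 320.1 in wild type and 411.5, 405.6 and 474.3 in the overexpressor (log2 difference 0.32, limma adjusted p = 0.680). The secondary wall gene IRX10 (AT1G27440) had 76.2, 77.1 and 83.8 against 94.4, 82.4 and 85.0 (log2 difference 0.12, limma adjusted p = 0.942). The shares over all tested probe sets were 2.17% lower and 0.135% higher at the adjusted threshold, and 5.73% and 3.05% at the unadjusted one. Among 6 tested carpel and ovule genes 1 rose and 0 fell, with an unadjusted p under 0.05 for the same counts of 1 and 0. This was CES, whose bHLH factor acts in the pistil's transmitting tract, at 431.3, 382.6 and 352.2 in wild type and 679.8, 737.2 and 625.1 in the overexpressor, a log2 difference of 0.79 (SE 0.15, limma adjusted p = 0.0439). CES missed the threshold with any 1 array left out, at a limma adjusted p of up to 0.191 without wild-type replicate b. None of the 5 photosynthesis and 5 reference genes passed limma or an unadjusted p under 0.05, with medians of 0.24 and 0.08, nor did the 1 tested tapetum gene, AT1G75050, at 0.27. Of the genes tested in this paragraph, only CES was read with the replicate letter as a block.

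Likeness of profile was measured as the Pearson r of log2 values over the 6 arrays, across 9456 tested single-gene probe sets. It is given as a description, because the points share the arrays and the group difference. The profiles most like AT3G07820 were those of AT3G28750, AT5G07430, AT5G50030, AT3G17060 and AT5G26700, with r from 0.9988 to 0.9996. AT5G07430 and AT3G17060 encode pectinesterases, which strip methyl groups from pectin and so prepare it for polygalacturonases and pectate lyases. For AT3G17060 the mean signal was 1045 ± 417 (SD, n = 3) for wild type and 58.5 ± 70.4 for the overexpressor. For AT3G01270 the closest were AT3G28750, AT5G47000, AT3G17060, AT5G39880 and AT5G50030, with r from 0.997 to 0.999, so that 3 genes, AT3G28750, AT3G17060 and AT5G50030, stood in both sets.

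For ADPG1 the closest profiles were those of TET3, AT1G36060, AT3G25870, AT1G56710 and OCT1, with r from 0.984 to 0.990. TET3, a tetraspanin gene, had a mean of 448.7 ± 10.9 (SD, n = 3) for wild type and 662.1 ± 53.8 for the overexpressor, a log2 difference of 0.54 (limma adjusted p = 0.155). OCT1, an organic cation transporter gene, rose from 490.1 ± 62.5 to 1384 ± 205 (limma adjusted p = 0.0107, and 0.0637 without wild-type replicate b). AT1G56710 is the polygalacturonase gene with the highest log2 difference among those that did not pass.

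The neighbours of the members on chromosome 3 were looked up after the members' values were seen, within 5 protein-coding genes on each side. Only 6 near AT3G07820, 3 near ADPG1 and 3 near AT3G01270 had a single-gene probe set, and the others were not read. Near AT3G01270, 1 of 2 tested neighbours fell by the limma test, and 2 had an unadjusted p under 0.05. Of all tested probe sets 2.17% were lower at the adjusted and 5.73% at the unadjusted threshold. The neighbour that fell was AT3G01240, with signals of 1601, 963.5 and 774.4 in wild type and of 56.4, 241.6 and 15.5 in the overexpressor (log2 difference -3.69, SE 0.68, limma adjusted p = 0.0320). AT3G01240 passed under 8 of 16 alternatives and, with 1 array left out, only without overexpressor replicate b. The other, AT3G01250, had 131.4, 57.6 and 66.1 against 12.7, 26.7 and 1.2 (log2 difference -1.80, limma adjusted p = 0.0571, and 0.0194 under the replicate block). AT3G01260, next to AT3G01270, lay below the filter, with at most 9.5 on any array.

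Near AT3G07820, 0 of 5 tested neighbours passed the limma test or an unadjusted p under 0.05, with log2 differences from -0.22 for AT3G07860 to 0.09 for AT3G07790. The polygalacturonase gene AT3G07840, 2 genes away, stood at 11.1, 9.6 and 13.5 in wild type and at 1.2, 7.2 and 13.9 in the overexpressor and was too dim to be tested. Near ADPG1, 0 of 3 tested neighbours passed the limma test, and 1 had an unadjusted p under 0.05. This was AT3G57480, with 296.4, 220.7 and 163.4 in wild type and 81.8, 121.6 and 85.0 in the overexpressor (log2 difference -1.10, limma adjusted p = 0.0725, and 0.0302 under the replicate block). Probe sequences were not used here, so signal shared between close relatives of these families was not tested.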

How the data were processed

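The deposited table holds 1 signal intensity per probe set for 6 arrays of total RNA. The sources used here name neither the authors' software nor their normalisation. The deposited intensities had been scaled, since the mean without the lowest and highest 2% was 200.0 on every array. No 2 arrays were identical. The number of arrays limits the precision, and detection calls were not used.

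Gene names came from the platform's 2016 annotation, brought up to date by gene identifier in RefSeq's table for TAIR10.1. Of 13513 probe sets with 1 gene, 13436 matched a locus. Probe sets with several genes were not read, which left out 12 further polygalacturonase genes. Of a gene's probe sets, the one with the highest mean was used. The 2 polygalacturonase inhibitor genes listed had no named probe set. The array build is not named, so no coordinates are given.

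A pseudocount of 16 was added before log2. The 64 control probe sets and 5687 dim ones were left out, and limma 3.58.1 (R 4.3.3; lmFit, then eBayes) was fitted to the other 17059, without a block. The fit was run on simulated data with the same spread for every probe set and no pairing of arrays. That run does not show how the fit behaves with the pairing and the unequal spreads of these data. Tables and figures were made with Python 3.11.15.

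Whether the replicate letters pair the arrays was checked over probe sets: within-group deviations of arrays with the same letter correlated at r = 0.57 (a), 0.36 (b) and 0.38 (c), against at most 0.10 for unlike letters. The main fit did not use the letters, so its standard errors and p-values leave this pairing out. Values with the letter as a block are given where they change a call or a count. They were read for the members, both enzyme lists, the pollen markers, all probe sets and the genes followed singly. For the other marker lists apart from CES, and for most neighbours and alike profiles, they were not read. The block gave 570 probe sets lower and 71 higher, against 370 and 23 without.

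Named were the members, every other tested enzyme gene past the threshold, up to 6 per enzyme list that did not pass, up to 3 markers per list and the 5 most alike profiles of each member. Further genes were chosen after their values were seen. Members and lists were chosen with earlier results of these data known. The alternatives changed the scaling, the pseudocount (1, 64), the filter (50%, none), the fit (array weights, trend, block), the probe set rule (a gene's mean) and the arrays (each left out and, added later, both lettered a).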

Additional observations from a re-analysis of the deposited data

How the results depend on the processing

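No direction of a member reversed under the alternatives run. The log2 difference of AT3G07820 ran from -4.85 to -3.28 and that of AT3G01270 from -4.44 to -3.10 over 16 alternatives each, both ends reached with 1 array left out and within the spread of replicates. That of ADPG1 moved to 2.5 with a pseudocount of 1 and 0.80 with 64, ran from 1.45 to 1.77 with 1 array left out, and could not be computed where the lowest 50% was left out. With 1 array left out, polygalacturonase genes lower ran from 0 to 2, pectate lyase genes lower from 0 to 3, and both counts of higher genes were 0 by limma, against at most 2 at an unadjusted p under 0.05. The 0 lower came without wild-type replicate b. A pseudocount of 1 gave 2 pectate lyase genes lower. Without both arrays lettered a the counts lower were 1 and 0. One polygalacturonase gene, AT1G56710, was higher with quantile normalisation, median centring, array weights and the replicate block (1 in each, against 0). The block also took the neighbours AT3G01250 and AT3G57480 past the threshold, and no other gene followed singly changed its call under it. Of all probe sets, against 370 lower and 23 higher, a pseudocount of 1 gave 209 and 13, leaving out the lowest 50% gave 180 lower, array weights gave 39 higher, the replicate block gave 570 and 71, and leaving out both arrays lettered a gave 84 and 9. With 1 array left out the counts ran from 30 to 386 lower and from 0 to 16 higher, with 30 and 0 without wild-type replicate b (345 higher at an unadjusted p under 0.05). The settings with fewer arrays or probe sets have less to test, and the highest of these counts, 386 lower, came without overexpressor replicate b. What moved the counts was not tested. Dim probe sets such as that of ADPG1 in wild type are limited by the pseudocount.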
